A study of Saccharomyces cerevisiae with 3 samples.

Results

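The PAU, DAN and TIR genes of Saccharomyces cerevisiae encode cell wall mannoproteins, and their gene content was compared between an artificial hybrid yeast and its parents. The set was defined by name as PAU1 to PAU24, DAN1, DAN4 and TIR1 to TIR4. Of these 30 genes, 29 had a row on the array and a value in all 3 samples, out of 6123 open reading frames (ORFs) with complete values. They comprised 23 PAU genes, 2 DAN genes and 4 TIR genes, and lay on all 16 chromosomes. PAU9 (YBL108C-A) was not analysed here.

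The strains were R2 IVo, an intraspecific hybrid, and its parents Sc1 (parental strain 1) and Sc2 (parental strain 2). Per the labels the yeasts had been grown and dried by an industrial protocol, and nothing further is said of their genotypes or ploidy. Genomic DNA of each pair of strains was co-hybridised, which gave 1 sample for R2 IVo over Sc1, 1 for R2 IVo over Sc2 and 1 for Sc1 over Sc2. Each sample is the authors' single log ratio per ORF, combined over duplicate arrays with exchanged dyes. The number of arrays limits the precision.

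Seripauperins, the products of the PAU genes, are short, serine-poor relatives of the TIR wall proteins. PAU, DAN and TIR genes are known to be switched on when oxygen is lacking, when the wall exchanges its aerobic mannoproteins Cwp1 and Cwp2 for this anaerobic set, and several respond to cold. Most PAU genes sit beside the telomeres, where yeast strains often differ in gene content, and their sequences are closely alike. The arrays measured DNA, not expression, and a PAU spot may bind DNA of several PAU genes. How much each spot did so was not tested.

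The values below are log2 ratios with the first-named strain as the numerator, so that 1 is a 2-fold difference. The base of 2 and the common direction are likely readings of an unlabelled table. The opposite direction would turn every sign, and another base would rescale every value. None of the 29 genes had a cell whose decimal point had to be restored. An estimate for a pair of strains combines its own sample (the direct value) with the path through the third strain (the indirect value), with the median over ORFs set to 0 in every sample. The 3 samples form a closed triangle, and the departure from closure is the only measure of error. The standard errors (SE) and p-values therefore describe array error for 3 samples, not the spread between cultures. An ORF was called at a Benjamini-Hochberg adjusted p under 0.05 in limma over all 6123 ORFs.

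No member of the family was called in any pair of strains. The 29 estimates ran from −0.11 to 0.22 for R2 IVo over Sc1, from −0.21 to 0.17 for R2 IVo over Sc2 and from −0.18 to 0.12 for Sc1 over Sc2. By limma 0 of 29 were called for R2 IVo over Sc1, where 0.670% of all ORFs were called. For R2 IVo over Sc2, 0 of 29 were called against 0.915% of all ORFs, and for Sc1 over Sc2, 0 of 29 against 1.98%. At these background shares a list of 29 would hold few calls in any case. At an unadjusted p under 0.05 the counts were 2, 4 and 1 of 29, that is 6.90%, 13.8% and 3.45%, beside 7.99%, 7.95% and 9.57% of all ORFs.

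The precision sets a bound on what could have been missed. The SE of a member's estimate lay between 0.061 and 0.090, with a median of 0.064, which was also the median over all ORFs. These SEs rest mostly on a prior drawn from all ORFs (5.30 degrees of freedom, against 1 of the gene's own). The medians were therefore bound to be close, and the SEs are only in part the members' own. The 95% intervals of all 29 members lay within 0.5 of 0 in each of the 3 comparisons, the widest bounds being 0.37 for PAU19 in R2 IVo over Sc1 and −0.36 for PAU14 in R2 IVo over Sc2. The smallest estimate called anywhere in the genome was 0.45 in size for R2 IVo over Sc1, 0.43 for R2 IVo over Sc2 and 0.36 for Sc1 over Sc2. These intervals are for a ratio at a spot. They do not bound the number of copies of a single gene where the spot also binds its relatives.

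**Figure D1:**
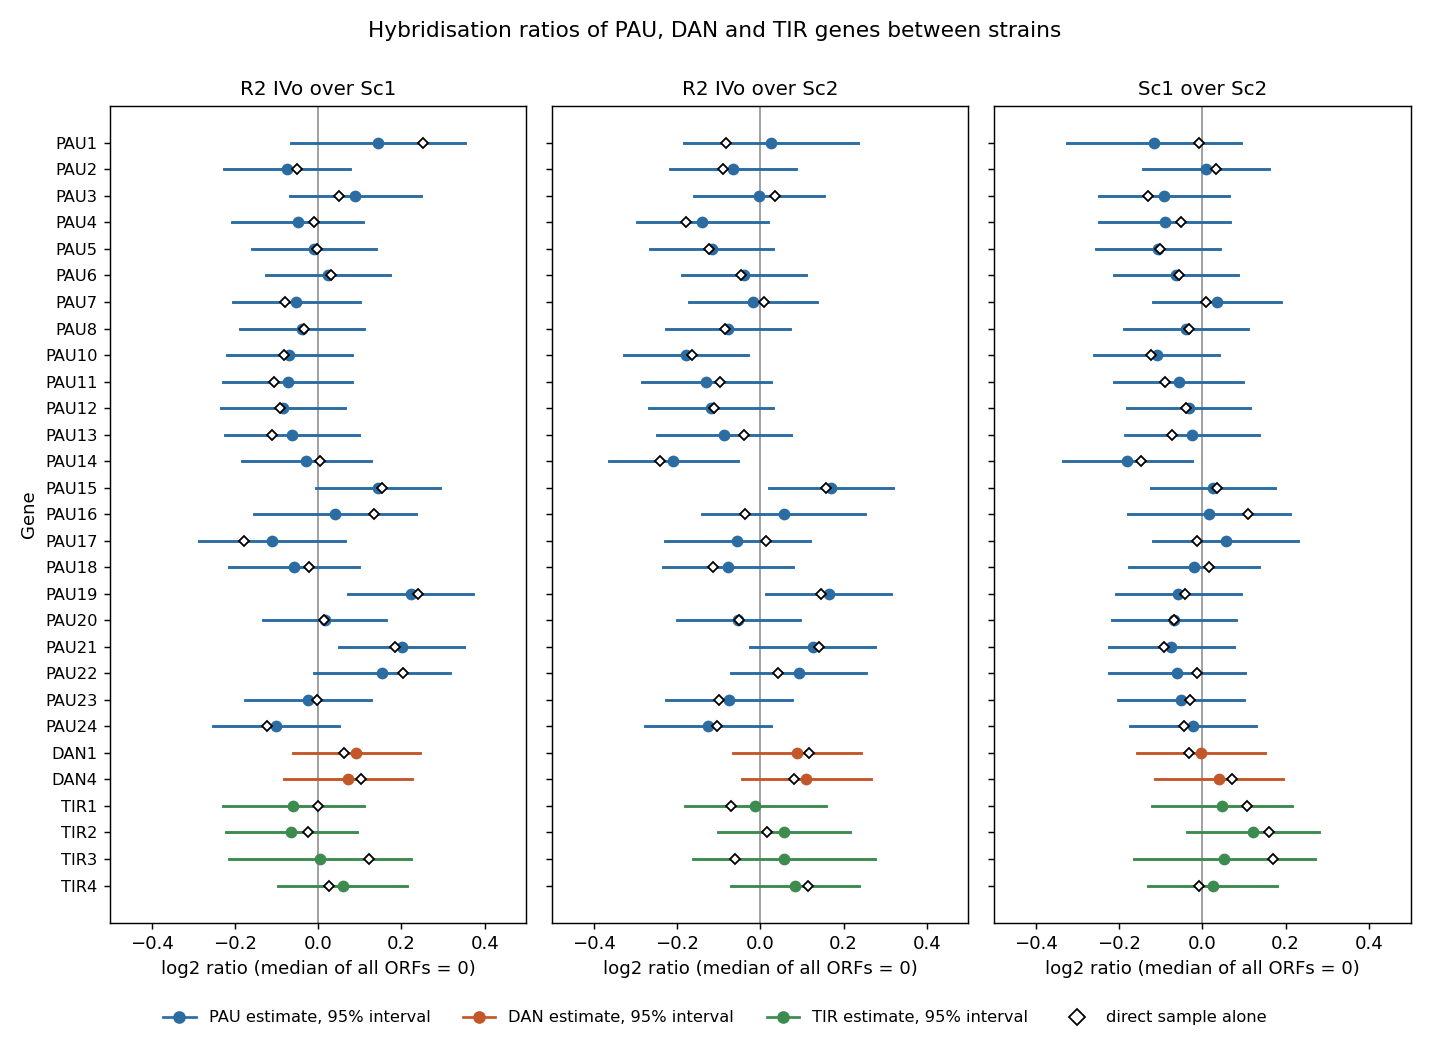
Log2 ratios (horizontal axis, median of all ORFs at 0) of the 29 genes, with a panel for each pair of strains. Filled circles are limma estimates with 95% intervals and open diamonds are the direct sample alone, and every interval lies between −0.5 and 0.5.

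The DAN genes encode wall mannoproteins that are anchored through a glycolipid and made under anaerobic conditions. DAN1 (YJR150C) had deposited ratios of 0.057 for R2 IVo over Sc1, 0.121 for R2 IVo over Sc2 and −0.019 for Sc1 over Sc2. DAN4 (YJR151C), its neighbour on the right arm of chromosome X and the longest gene of the set with a coding length of 3486 bp, had 0.096, 0.084 and 0.084 in the same order. Both genes were thus a little above 0 in both hybrid samples. The estimates for R2 IVo over Sc2 were 0.088 ± 0.063 for DAN1 (SE, 3 samples; limma adjusted p = 0.816) and 0.11 ± 0.064 for DAN4 (limma adjusted p = 0.767). For R2 IVo over Sc1 they were 0.092 and 0.071, and for Sc1 over Sc2 −0.003 and 0.040, none of them called.

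The TIR genes encode serine- and alanine-rich wall mannoproteins. TIR1 and TIR2 are known for their response to cold, and TIR1, TIR3 and TIR4 are needed for growth without oxygen. The 4 genes lie away from the chromosome ends, and TIR2 and TIR4 are neighbours on the right arm of chromosome XV. TIR1 (YER011W) had deposited ratios of −0.006 for R2 IVo over Sc1, −0.067 for R2 IVo over Sc2 and 0.120 for Sc1 over Sc2. TIR2 (YOR010C) had −0.031, 0.021 and 0.174, and TIR3 (YIL011W) had 0.116, −0.056 and 0.183. These genes were highest in the Sc1 over Sc2 sample, while TIR4 (YOR009W) had 0.021, 0.119 and 0.006 and was highest in R2 IVo over Sc2. The estimate for Sc1 over Sc2 was 0.12 ± 0.065 for TIR2, the highest of all 29 genes in that comparison (limma adjusted p = 0.664), and 0.048, 0.053 and 0.025 for TIR1, TIR3 and TIR4. For R2 IVo over Sc1 the estimates of TIR1 to TIR4 were −0.059, −0.065, 0.0047 and 0.059, and for R2 IVo over Sc2 they were −0.012, 0.057, 0.057 and 0.083, none of them called. TIR3 had the largest closure of the set, 0.35, so its direct value of 0.17 for Sc1 over Sc2 was not borne out by the indirect value of −0.18.

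Among the 23 PAU genes the estimates were spread around 0 with an SD of 0.10 for R2 IVo over Sc1, 0.10 for R2 IVo over Sc2 and 0.055 for Sc1 over Sc2. PAU19 (YMR325W, right end of chromosome XIII) stood highest against Sc1. Its deposited ratios were 0.234 for R2 IVo over Sc1, 0.151 for R2 IVo over Sc2 and −0.028 for Sc1 over Sc2. Its estimates were 0.22 ± 0.062 for R2 IVo over Sc1 (limma adjusted p = 0.378, the lowest of the family in that comparison) and 0.16 ± 0.062 for R2 IVo over Sc2 (limma adjusted p = 0.583). PAU21 (YOR394W) followed with deposited ratios of 0.178, 0.146 and −0.078 and an estimate of 0.20 ± 0.062 for R2 IVo over Sc1 (limma adjusted p = 0.483). PAU22 (YPL282C) had 0.197, 0.047 and 0.001 and an estimate of 0.15 ± 0.067 for the same pair (limma adjusted p = 0.660). In these 3 genes the hybrid was above both parents by the estimates, but by less than the tests could call.

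PAU15 (YIR041W, right end of chromosome IX) had deposited ratios of 0.148 for R2 IVo over Sc1, 0.163 for R2 IVo over Sc2 and 0.048 for Sc1 over Sc2. Its estimate for R2 IVo over Sc2, 0.17 ± 0.062, was the highest of the family there (limma adjusted p = 0.564). At the other end of the range was PAU14 (YIL176C, left end of the same chromosome), with −0.002, −0.238 and −0.134. PAU14 was thus low in both samples that contain Sc2. Its estimates were −0.21 ± 0.064 for R2 IVo over Sc2 (limma adjusted p = 0.441) and −0.18 ± 0.064 for Sc1 over Sc2 (limma adjusted p = 0.416), each the lowest adjusted p of the family in its comparison. These estimates share the Sc2 DNA and are not independent of each other.

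PAU10 (YDR542W) was close to PAU14, with deposited ratios of −0.089 for R2 IVo over Sc1, −0.161 for R2 IVo over Sc2 and −0.111 for Sc1 over Sc2. PAU4 (YLR461W) had −0.017, −0.174 and −0.039 in that order. Their estimates for R2 IVo over Sc2 were −0.18 ± 0.062 and −0.14 ± 0.065 (limma adjusted p = 0.524 and 0.662). For Sc1 over Sc2 the estimate of PAU10 was −0.11 ± 0.062, the third lowest (limma adjusted p = 0.678). Against Sc1 the lowest estimates were those of PAU17 (YLL025W, −0.11 ± 0.072), PAU24 (YBR301W, −0.10 ± 0.062) and PAU12 (YGR294W, −0.085 ± 0.061), with limma adjusted p-values of 0.797, 0.782 and 0.830. PAU24 had deposited ratios of −0.129, −0.099 and −0.032 and PAU12 had −0.098, −0.107 and −0.027, so both were below 0 in all 3 samples. PAU17 owed its place to the direct sample, where it had −0.185, against 0.017 for R2 IVo over Sc2 and 0.001 for Sc1 over Sc2. Its estimate for Sc1 over Sc2, 0.056 ± 0.072, was second to that of TIR2 (limma adjusted p = 0.891).

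PAU1 (YJL223C) showed how far single samples could depart from each other. Its deposited ratio of 0.245 for R2 IVo over Sc1 was the highest of any member in any sample, while R2 IVo over Sc2 gave −0.078 and Sc1 over Sc2 gave 0.004. The direct value against Sc1 was therefore 0.25 and the indirect value −0.073, a closure of 0.32, and the estimate was 0.14 ± 0.086 (limma adjusted p = 0.779). For Sc1 over Sc2 its estimate of −0.12 ± 0.086 was second to that of PAU14 among the lowest (limma adjusted p = 0.758). PAU16 (YKL224C) was similar, with 0.127, −0.033 and 0.122 and a closure of 0.28. The remaining PAU genes, PAU2, PAU3, PAU5 to PAU8, PAU11, PAU13, PAU18, PAU20 and PAU23, stayed between −0.13 and 0.089 in every estimate. Over the 29 members the closure had an SD of 0.13, against 0.19 over all ORFs, where the largest was 3.09 in size. The median sizes of the closure were close, 0.093 and 0.103.

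The PAU genes as a group lay slightly below 0 against Sc2. For R2 IVo over Sc2, 17 of 23 estimates were negative and the median was −0.066, and for Sc1 over Sc2, 18 of 23 were negative with a median of −0.057. Of all 6123 ORFs, 3068 and 3004 were negative in these comparisons, and the medians were −0.00033 and 0.0020. For R2 IVo over Sc1 the PAU median was −0.029, with 14 of 23 negative, against 2999 of 6123 ORFs. The PAU spots may bind the same DNA and both comparisons contain the same Sc2 DNA, so these counts are a description only. For R2 IVo over Sc2 and Sc1 over Sc2 the direct value and the indirect one shared a sign in 18 and 16 of the 23 genes. Over all 6123 ORFs they did so in 3339 and 3318. The 6 DAN and TIR genes had medians of 0.070 for R2 IVo over Sc2 and 0.044 for Sc1 over Sc2, with TIR1 negative for R2 IVo over Sc2 and DAN1 for Sc1 over Sc2. Direct and indirect values shared a sign in 4 and 1 of these 6.

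The PAU genes also fell into classes by coding length in the RefSeq annotation. The 13 genes of 363 bp had a median of −0.087 for R2 IVo over Sc2, and 12 of the 13 were negative. The only pair of 495 bp, PAU21 and PAU22, had 0.13 and 0.092 for that comparison and 0.20 and 0.15 for R2 IVo over Sc1, so these genes lay close to each other in both. The 5 genes of 375 bp (PAU3, PAU15, PAU17, PAU19 and PAU23) were mixed, from −0.11 to 0.22 for R2 IVo over Sc1. The classes were looked at after the values were seen and carry no test.

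Set against each other, the 3 strains differed by 0.053 to 0.22 between the highest and the lowest level at a member, with a median of 0.11, against a median of 0.090 over all ORFs. R2 IVo had the highest level at 10 members, the lowest at 15 and the middle one at 4. Over all 6123 ORFs it was highest at 2000, lowest at 1948 and in the middle at 2175. The middle place was that of R2 IVo at 13.8% of members and 35.5% of all ORFs. It was that of Sc1 at 55.2% and 32.1%, and that of Sc2 at 31.0% and 32.4%. No pair of strains was called apart at any member, and PAU spots may bind the same DNA, so these orders are a description of the estimates.

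The position of the PAU genes allows their values to be set beside those of their surroundings. Of the 23 PAU genes, 18 were among the 10 outermost measured ORFs of a chromosome arm, while PAU2, PAU5, PAU7, PAU17 and PAU23 lay further in. The 18 genes lay on 18 different arms, whose ends held 162 other measured ORFs. Of the 18 PAU genes limma called 0 in each comparison, and of the 162 other ORFs it called 15 for R2 IVo over Sc1 (9.26%), 14 for R2 IVo over Sc2 (8.64%) and 28 for Sc1 over Sc2 (17.3%). Without ORFs with a restored decimal point these calls numbered 4, 4 and 11. In the reported fit 0.670%, 0.915% and 1.98% of all ORFs were called. At an unadjusted p under 0.05 the counts were 2, 4 and 1 of the 18 PAU genes (11.1%, 22.2% and 5.56%). Of the 162 other ORFs they were 38, 42 and 51 (23.5%, 25.9% and 31.5%), so that the shares for R2 IVo over Sc2 were nearly alike. The shares of all ORFs were 7.99%, 7.95% and 9.57%. Estimates of at least 0.25 in size were found for 0 of 18 PAU genes in each comparison. Of the 162 other ORFs 28, 31 and 43 reached that size (17.3%, 19.1% and 26.5%). Among all ORFs 3.02%, 3.22% and 4.21% did so, and at these shares a list of 18 would hold few in any case. Over the ends of all 32 arms, with or without a PAU gene, 301 other ORFs were measured, and 24, 39 and 64 of them were called (7.97%, 13.0% and 21.3%), or 10, 13 and 30 without restored decimal points. The 5 PAU genes further in ranged from −0.11 to −0.010 for R2 IVo over Sc1, and those at the ends from −0.10 to 0.22. For R2 IVo over Sc2 these ranges were −0.12 to −0.017 and −0.21 to 0.17. For Sc1 over Sc2 they were −0.11 to 0.056 and −0.18 to 0.025. The difference between PAU genes and other end ORFs was not tested, and ORFs of an end are not independent of each other.

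**Figure D2:**
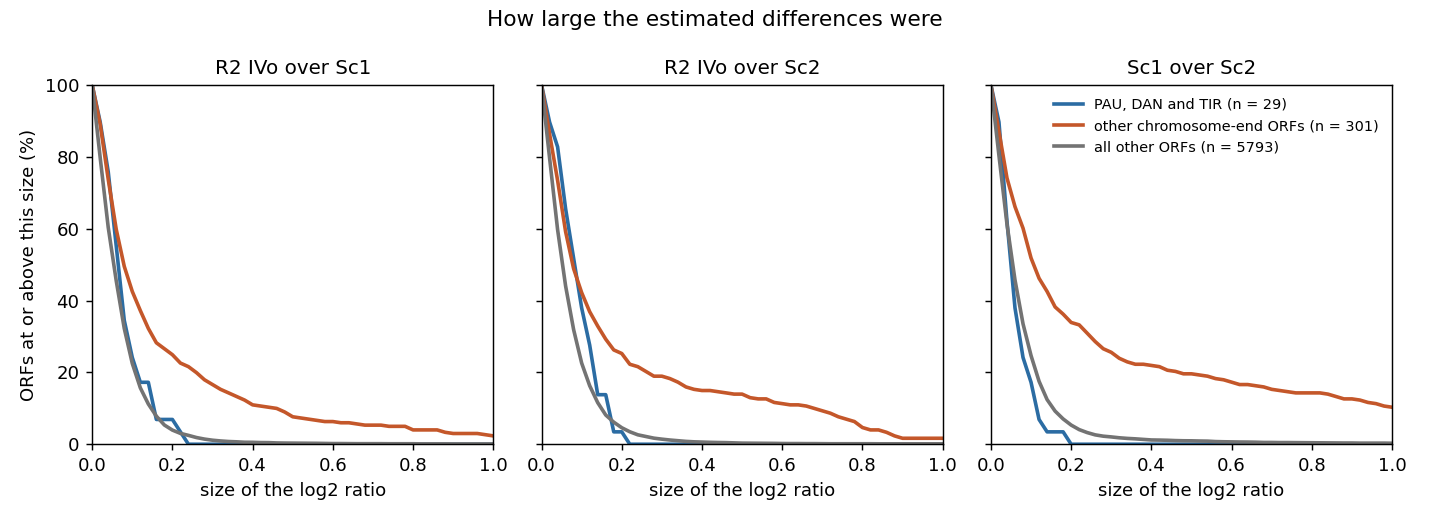
Share of ORFs (vertical axis, percent) whose estimate reaches a given size in log2 (horizontal axis, shown up to 1), for the 29 PAU, DAN and TIR genes, the 301 other ORFs at the ends of all arms and all remaining ORFs. No member reaches 0.25. Of the other chromosome-end ORFs 20.6%, 20.9% and 29.9% do so for R2 IVo over Sc1, R2 IVo over Sc2 and Sc1 over Sc2. The shares of all ORFs are 3.02%, 3.22% and 4.21% in that order. Not all of the 29 genes lie at chromosome ends.

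Several PAU genes stood beside ORFs whose spots differed clearly between the strains, while their own spots stayed near 0. Neighbours were the 2 nearest measured ORFs with a RefSeq entry on each side, in the gene order of the reference strain, which need not be the order in these strains. Of 94 such neighbours, 5 were called for R2 IVo over Sc1 (5.32%), 8 for R2 IVo over Sc2 (8.51%) and 12 for Sc1 over Sc2 (12.8%). The shares called were 0.670%, 0.915% and 1.98% over all ORFs. Over the other chromosome-end ORFs they were 7.97%, 13.0% and 21.3%. The 94 neighbours include those of members away from the ends, so the shares of these sets are not directly comparable. In all, 9 members (8 PAU genes and DAN4) had at least 1 called neighbour. Among the neighbours named below, MAL11, YGL262W, YLR462W, YLR464W, CSS3 and PGU1 use at least 1 value with a restored decimal point.

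PAU8 (YAL068C), at the left end of chromosome I, had deposited ratios of −0.039 for R2 IVo over Sc1, −0.080 for R2 IVo over Sc2 and −0.020 for Sc1 over Sc2, all slightly negative. Its nearest neighbour SEO1, a putative permease gene, was at 2.90 ± 0.063 for Sc1 over Sc2 and 2.04 for R2 IVo over Sc2, where the PAU8 estimates were −0.039 ± 0.061 and −0.078. PAU11 (YGL261C), at the left end of chromosome VII, had deposited ratios of −0.112, −0.092 and −0.077 and an estimate of −0.057 ± 0.064 for Sc1 over Sc2. Its nearest neighbour YGL262W was at 1.66 ± 0.066 for that pair, and COS12, a subtelomeric membrane protein gene 1 step further, at 0.59 ± 0.067. Neither difference between the parents was seen at the PAU11 spot.

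PAU12, at the right end of chromosome VII, was at −0.033 ± 0.061 for Sc1 over Sc2 and at −0.085 for R2 IVo over Sc1. Its nearest neighbours, the maltase gene MAL12 and COS6, were also near 0 (0.061 ± 0.10 and 0.089 ± 0.063 for Sc1 over Sc2). MAL11, an alpha-glucoside transporter gene beyond MAL12, was at 2.98 ± 0.16 for Sc1 over Sc2 and −3.13 for R2 IVo over Sc1. The closure of MAL11 was −0.79, where the SD over all ORFs was 0.19. PAU4, at the right end of chromosome XII, was at −0.090 ± 0.065 for Sc1 over Sc2, beside YLR462W at −1.13 ± 0.070 and YLR464W at −1.12 ± 0.066. PAU22, at the left end of chromosome XVI, was at −0.061 ± 0.067, beside YRF1-7, a helicase gene of the subtelomeric Y′ repeat, at −0.68 ± 0.061. PAU4 and PAU22 thus lay within 0.1 of 0 for Sc1 over Sc2, each with a called ORF as a nearest neighbour. A neighbour's spot may also bind related DNA elsewhere, such as other copies of the Y′ repeat for YRF1-7. A called neighbour therefore need not place a difference right beside the PAU gene. What the YLR462W, YLR464W and YRF1-7 spots bind was not tested.

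Differences were also called near PAU1 and PAU16. PAU1 was at −0.12 ± 0.086 for Sc1 over Sc2, its nearest neighbour VTH2 at 0.069 ± 0.062, and the isomaltase gene IMA4 beyond VTH2 at −0.72 ± 0.066. PAU16, at the left end of chromosome XI, was at 0.016 ± 0.081, with YKL222C and MCH2, a gene of the monocarboxylate transporter family, at −0.47 ± 0.065 and −0.43 ± 0.061. PAU20 (YOL161C) was at −0.068 ± 0.061 for Sc1 over Sc2, with CSS3 beyond YOL160W at −1.61 ± 0.25. DAN4 was at 0.040 ± 0.064, with the pectinase gene PGU1 beyond DAL5 at −2.75 ± 0.31. YOL160W and DAL5 were at −0.30 ± 0.20 and 0.068 ± 0.061 for this pair and were not called. CSS3 and PGU1 had closures of 1.27 and 1.63, and neither was called with robust moderation (adjusted p = 0.497 and 0.405 for Sc1 over Sc2).

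**Figure D3:**
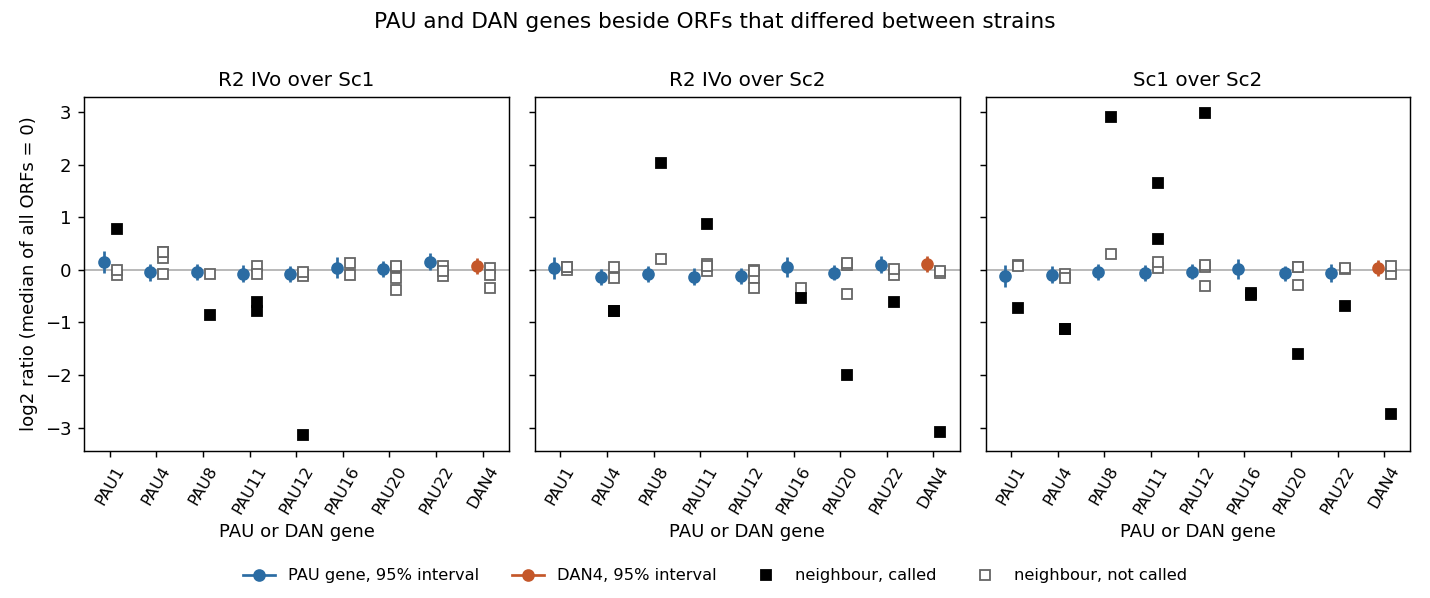
Log2 ratios (vertical axis, median of all ORFs at 0) of the 9 PAU and DAN genes with a called neighbour (circles with 95% intervals, left in each column) and of their nearest measured neighbours (squares, filled where called by limma). The circles stay close to 0 in each panel, while called neighbours run from −3.13 (MAL11, R2 IVo over Sc1) to 2.98 (MAL11, Sc1 over Sc2).

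Genes that control or accompany the anaerobic wall programme are given for comparison. With 0.670%, 0.915% and 1.98% of all ORFs called, and 7.99%, 7.95% and 9.57% at an unadjusted p under 0.05, lists this short would hold few calls in any case, and their counts say little about them. Of 10 regulators of anaerobic and sterol genes, limma called 0 in any pair (with 0, 1 and 1 at an unadjusted p under 0.05 for R2 IVo over Sc1, R2 IVo over Sc2 and Sc1 over Sc2). The highest were ROX1, the repressor of hypoxic genes, at 0.23 ± 0.062 for Sc1 over Sc2 (limma adjusted p = 0.249) and at 0.18 ± 0.062 for R2 IVo over Sc2, and ECM22, an activator of sterol genes, at 0.057 for R2 IVo over Sc1. The lowest were ROX1 at −0.048 for R2 IVo over Sc1, SPT23, an activator of fatty acid desaturation, at −0.050 for R2 IVo over Sc2 and MGA2, its relative, at −0.068 for Sc1 over Sc2. UPC2, the activator of sterol uptake and of DAN and TIR genes, was at 0.050, 0.051 and 0.0017 in the order of those pairs.

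Of 12 other genes of anaerobic or hypoxic growth, limma called 0 in any pair (with 0 at an unadjusted p under 0.05 in each). They lay between −0.11 (CYC7, a cytochrome c isoform gene, Sc1 over Sc2) and 0.22 ± 0.096 (HEM13, a haem synthesis gene, Sc1 over Sc2). For R2 IVo over Sc1 the list ran from −0.084 (HEM13) to 0.080 (FET4, a low-affinity iron transporter gene), and for R2 IVo over Sc2 from −0.061 (CYC7) to 0.14 (COX5B, a hypoxic subunit gene of cytochrome c oxidase). The aerobic counterparts CWP1 and CWP2 were likewise without a limma call (0 of 2 had an unadjusted p under 0.05 in each pair), with CWP1 at −0.0057, −0.11 and −0.10 in the order of those pairs.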

How the data were processed

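The authors' deposited table held 1 score per ORF and sample, a log ratio with unstated base, centring and direction, already combined over dye-swapped duplicate arrays per the labels. The scanner, background correction, normalisation and averaging method were not given in the sources used here. Whole-number cells of at least 1000 in size (76 cells) were taken to lack a decimal point and divided by 1000. After 2 control spots and 55 ORFs with a missing value were left out, 6123 ORFs remained. Samples were centred on their medians (−0.006, 0.004 and 0.013).

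Strain differences were fitted with limma 3.58.1 in R 4.3.3 (lmFit, eBayes) to the triangle of 3 samples, with 1 residual and 5.30 prior degrees of freedom. Calls used Benjamini-Hochberg adjusted p under 0.05 over all ORFs. The fit was tested on simulated data with planted differences larger than any member's estimate. That run does not speak to differences as small as those of the members. Gene symbols (all 29 members matched), order and coding lengths came from RefSeq assembly GCF_000146045.2. Coordinates are left out, since the array's build was not stated in the labels.

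Values are given for every DAN and TIR gene and for the 3 highest and 3 lowest estimates per comparison. For each related gene list the highest and lowest are named. UPC2 and the members described for their neighbours or closure (PAU8, PAU11, PAU16, PAU20) were added after values were seen, as were all neighbours named. Members and lists were chosen with earlier results of these data known.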

Additional observations from a re-analysis of the deposited data

How the results depend on the processing

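The count of 0 called members held in each comparison without ORFs with restored decimal points, without centring, with centring on the mode, with robust moderation, with 4 prior degrees of freedom and with incomplete ORFs included. The lowest adjusted p of a member ranged over these fits from 0.29 to 0.57 for R2 IVo over Sc1, from 0.34 to 0.60 for R2 IVo over Sc2 and from 0.31 to 0.53 for Sc1 over Sc2. Of 87 member estimates, 3 changed sign without centring and 1 with centring on the mode, none of them called. With the direct sample alone 10 changed sign and 9 moved by more than their SE, and with the indirect path alone 16 changed sign and 39 moved. The 3 estimates of a gene share 1 closure and move by the same size, so these moves are not separate outcomes. The 9 were those of PAU1, PAU16 and TIR3. Counts of signs thus rest on small values.

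Neighbour and chromosome-end counts were examined under these settings after the data were seen. Without ORFs with restored decimal points, called neighbours numbered 3, 3 and 6, called other end ORFs 10, 13 and 30 (4, 4 and 11 on the arms with an end PAU gene), and all called ORFs 15, 15 and 61 (R2 IVo over Sc1, R2 IVo over Sc2, Sc1 over Sc2), against 41, 56 and 121 of all ORFs in the reported fit. That setting removes ORFs with a whole-number cell, MAL11 and PGU1 among them, and keeps SEO1. At 4 prior degrees of freedom 15 and 25 other end ORFs were called for R2 IVo over Sc1 and R2 IVo over Sc2 (9 and 9 on the arms with an end PAU gene), 5 neighbours for R2 IVo over Sc2, and 23 and 34 of all ORFs for the hybrid pairs. At 4 prior degrees of freedom COS12 (R2 IVo over Sc1), PGU1 (R2 IVo over Sc2), MCH2 and CSS3 (both pairs with Sc2) were no longer called, and CSS3 was also not called without centring.

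No paired analysis was possible because each pair of strains has 1 sample. Signal over background is unknown.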
